A study of Xenopus laevis with 115 samples.

Results

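Ectoderm of nuclear-transfer (NT) embryos of the frog Xenopus laevis was compared with the endoderm that was the source of the transferred nuclei, in the experiments that used the compound A486. In NT, an egg receives the nucleus of a differentiating cell, and the embryo that results carries a genome that had served another tissue. Endoderm gives rise to gut and its derived organs, and the animal-cap ectoderm of the gastrula gives rise to epidermis and nervous system. The comparison asks how far expression in the new tissue departed from that of the tissue the nuclei came from. The libraries were chosen by their titles. They were 13 libraries of stage 11 ectoderm from NT embryos made with A486 nuclei, and 6 libraries of stage 18 endoderm from A486 donor embryos, 19 of the 115 samples in the records. The NT libraries fell into 3 experiments of 5, 5 and 3, and each experiment had 2 donor libraries. No library of ectoderm from fertilised (IVF) embryos entered any test between groups.

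Both groups were labelled wild type. Donor embryos came from IVF and were treated from stage 12 until stage 18 with a compound, after which they went either into transfer or into RNA extraction, so the donor libraries were not made from the transferred cells themselves. A486 stands in the titles as the counterpart of A-485, which inhibits the acetyltransferase activity of p300 and CBP and was used at 30 µM. The records describe neither A486 nor its dose, and a chemical relative of A-485 of that name is known as an inactive control. Poly(A) RNA was sequenced as paired reads of 50 bp, with 400 ng of total RNA taken per ectoderm sample and 300 ng per endoderm sample. The labels do not say whether the libraries of an experiment came from separate embryos, so p-values measure the spread between libraries. Tissue, stage, origin of the embryo (NT or IVF) and amount of RNA taken differed together between the groups and cannot be told apart. The donor embryos were also themselves treated, while the NT embryos received nuclei of treated embryos. In bulk tissue, fewer cells of a type and less RNA per cell cannot be told apart either. Both A486 donor libraries of experiment 1 are labelled ectoderm as to cell type and endoderm as to tissue. Their titles read donor and name no tissue, and they stayed in the donor group.

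The abundance tables list 44441 target sequences by identifier, 42420 of them mRNA models (XBmRNA) and 2021 with other identifiers, and each target is called a transcript here. No table at hand pairs these identifiers with gene symbols or sequences. Gene roles are therefore not given, 2 transcripts in each direction are named, and the tissue labels could not be set against endoderm or ectoderm markers. Total expected counts ran from 6468976 to 24820727 in NT libraries (median 15004121) and from 14481742 to 24407139 in donor libraries. These totals did not differ between the groups beyond their spread (two-sided exact permutation test within experiments, p = 0.418). A count of 3 corresponded to 0.096 to 0.372 CPM (counts scaled to a common library size) in NT libraries and 0.173 to 0.273 CPM in donor libraries, which bounds what could be seen at this depth, for counting error only. None of the 26 pairs of libraries within a group and experiment agreed within sampling noise; pairs of other kinds were not compared in this way.

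The 2 tissues formed separate sets of libraries. The first principal component of log2 CPM carried 65% of the variance, and every NT library lay on one side of every donor library. Across the 22718 transcripts tested, the correlation of log2 CPM between an NT and a donor library ran from 0.674 to 0.772. It ran from 0.965 to 0.983 between NT libraries of 1 experiment and from 0.901 to 0.952 between NT libraries of different experiments. Donor libraries correlated at 0.944 to 0.967 within an experiment and at 0.888 to 0.947 between experiments. Transcripts are not independent replicates, so these values are a description. The second component carried 8.76% and spread the NT libraries by experiment, with experiment 2 apart from experiments 1 and 3. On the first component, donor library 1 of experiment 1 lay at 161.8, nearer to the NT libraries than the other donors, which lay between 189.9 and 214.6.

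**Figure D1:**
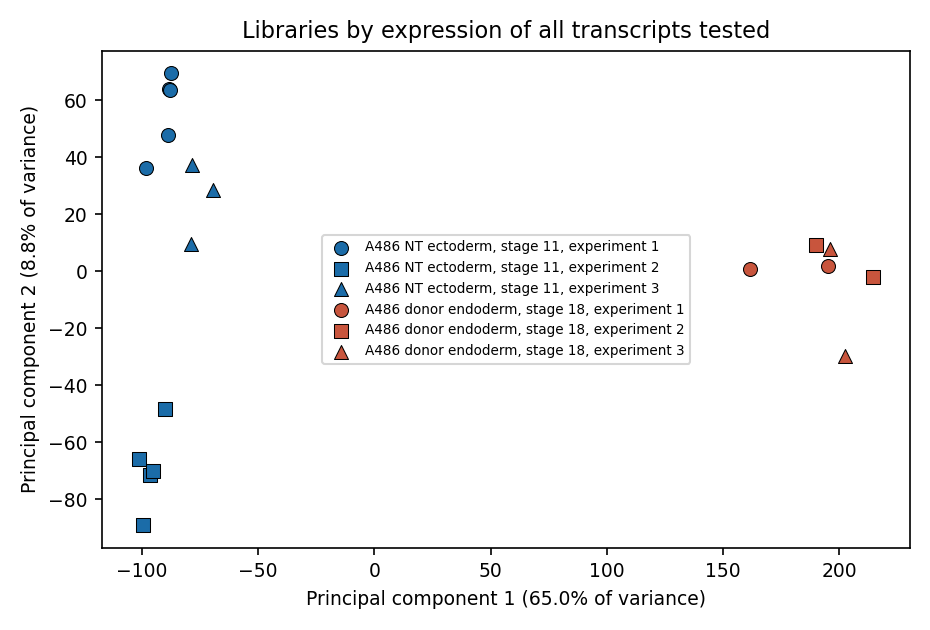
First (x axis) and second (y axis) principal components of log2 CPM over 22718 transcripts, with the share of variance on each axis; each point is a library, coloured by group and marked by experiment. The 13 NT libraries lie left of the 6 donor libraries, and the NT libraries of experiment 2 lie below those of experiments 1 and 3.

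Transcripts of every level changed between source endoderm and NT ectoderm. Of 22718 transcripts tested, 16141 (71%) were called at a Benjamini-Hochberg adjusted p under 0.05 in edgeR's quasi-likelihood test with the experiment number as a block. With counts summed per group and experiment, which leaves 3 values against 3, 9001 of 25492 (35.3%) were called. The 16141 calls were split evenly, with 8065 higher in NT ectoderm (35.5%) and 8076 lower (35.5%). An absolute log2 fold change at or above 1 was met in addition by 10540 transcripts (46.4%), of which 5351 were higher (23.6%) and 5189 lower (22.8%). In 3366 transcripts (14.8%) all 13 NT libraries lay above all 6 donor libraries, and in 3876 (17.1%) all lay below. The even split depended on how libraries were scaled. TMM scaling, which sets the bulk of transcripts to no change, gave a median log2 fold change of 0.02. Scaling by total counts moved that median to 0.67, and gave 12434 transcripts higher and 4732 lower of 17166 called, so that 72.4% of calls were higher rather than 50%. Of the transcripts called with TMM, 379 were called in the opposite direction with total counts. The TMM factors themselves separated the groups, at 1.06 to 1.33 in NT libraries and 0.685 to 0.763 in donor libraries. Log2 fold changes, calls and CPM given here are relative to the TMM centre. TPM values, which are used for levels per length and for shares of a library, are not scaled by TMM, and for each of the 4 transcripts named here the ratio of NT ectoderm over donors was higher in TPM than after TMM.

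**Figure D2:**
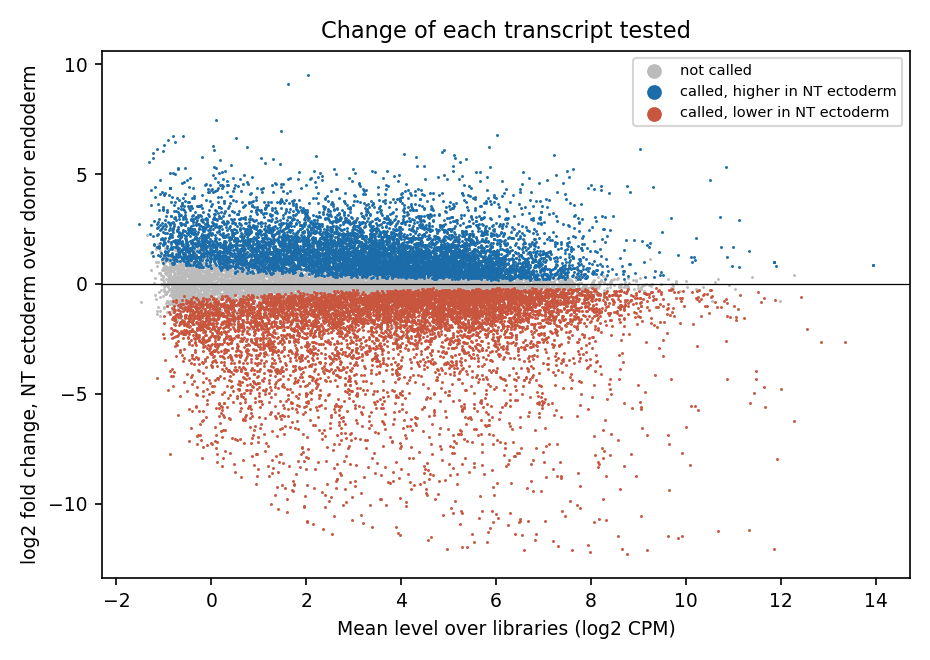
Log2 fold change of NT over donor (y axis) against mean level in log2 CPM (x axis) for the 22718 transcripts tested, with transcripts called higher, called lower and not called in separate colours. Decreases beyond 10 on the log2 scale have no counterpart among the increases, whose largest value is 9.52.

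The naming rule admitted only transcripts without overlap between the groups and with the same sign in all 3 experiments. These traits of the named transcripts were therefore set by the rule. The transcript with the largest increase that met the naming rule was XBmRNA9583 of gene model XBXL10_1g5152. Its level per library ran from 47.8 CPM, through a median of 74.7 CPM, to 194.1 CPM in NT ectoderm, against 0.273, 0.642 and 2.22 CPM in donor endoderm. The transcript was near the counting limit in donors, where 3 to 31 reads were estimated per library, and no NT library came near the donor range. The log2 fold change was 6.80 with a standard error of 0.38 (edgeR, adjusted p = 1.14e-11), and the values within experiments 1, 2 and 3 were 6.68, 6.61 and 7.20. IVF ectoderm of experiment 1 carried it at 81.3 ± 32.1 TPM (a level scaled also for transcript length; SD, n = 4), beside 61.7 ± 28.3 TPM in NT ectoderm (n = 13) and 0.355 ± 0.338 TPM in donors (n = 6).

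The most abundant transcript that met the naming rule and was at least 1 log2 unit higher in NT ectoderm was XBmRNA66414 of gene model XBXL10_1g35175. It had 2008, 3161 and 4672 CPM in the lowest, median and highest NT library, against 991.4, 1123 and 1259 CPM in donor endoderm. Donor endoderm carried it in quantity too, and the groups did not overlap, as the rule required. The log2 fold change was 1.52 with a standard error of 0.12 (edgeR, adjusted p = 1.98e-09), and it was 1.52, 1.39 and 1.71 within experiments 1, 2 and 3. Per length, it reached 4283 ± 593 TPM in NT ectoderm, 998 ± 136 TPM in donors and 4061 ± 773 TPM in IVF ectoderm. The log2 ratio of the mean TPM in NT ectoderm over donors was 2.10, above the TMM value.

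The largest decrease among transcripts under the same rule was that of XBmRNA23985, of gene model XBXL10_1g12753. It had 0.0605, 0.288 and 0.436 CPM in the lowest, median and highest NT library, against 671.4, 1420 and 2293 CPM in donor endoderm. Between 1 and 11 reads were estimated in any NT library, and 11665 to 30448 in any donor library, so an abundant endoderm transcript was close to the counting limit in all 13 NT libraries. The log2 fold change was -12.28 with a standard error of 0.26 (edgeR, adjusted p = 8.94e-18). Within experiments 1, 2 and 3 it was -12.26, -12.94 and -11.48. IVF ectoderm had 0.194 ± 0.0414 TPM, against 0.297 ± 0.114 TPM in NT ectoderm and 1028 ± 378 TPM in donors.

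The most abundant donor transcript that met the naming rule and was at least 1 log2 unit lower was XBmRNA47820, of gene model XBXL10_1g25607. It had 1984, 4274 and 5707 CPM in the lowest, median and highest NT library, against 20359, 24116 and 29418 CPM in donor endoderm. The groups did not overlap, as the rule required, and the transcript was also among the abundant ones of NT ectoderm. The log2 fold change was -2.66 with a standard error of 0.17 (edgeR, adjusted p = 5.96e-11), and within experiments 1, 2 and 3 it was -2.39, -3.16 and -2.29. Its level was 4581 ± 953 TPM in NT ectoderm and 18785 ± 2175 TPM in donors, and IVF ectoderm had 4841 ± 1311 TPM. The log2 ratio of the mean TPM in NT ectoderm over donors was -2.04, a smaller decrease than the TMM value. For all 4 named transcripts the mean in IVF ectoderm lay inside the range of the NT libraries, a description over 4 libraries of 1 experiment. The change of none of the 4 was called to differ between the experiments (adjusted p = 0.84, 0.58, 0.11 and 0.11 in the order described; edgeR interaction).

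**Figure D3:**
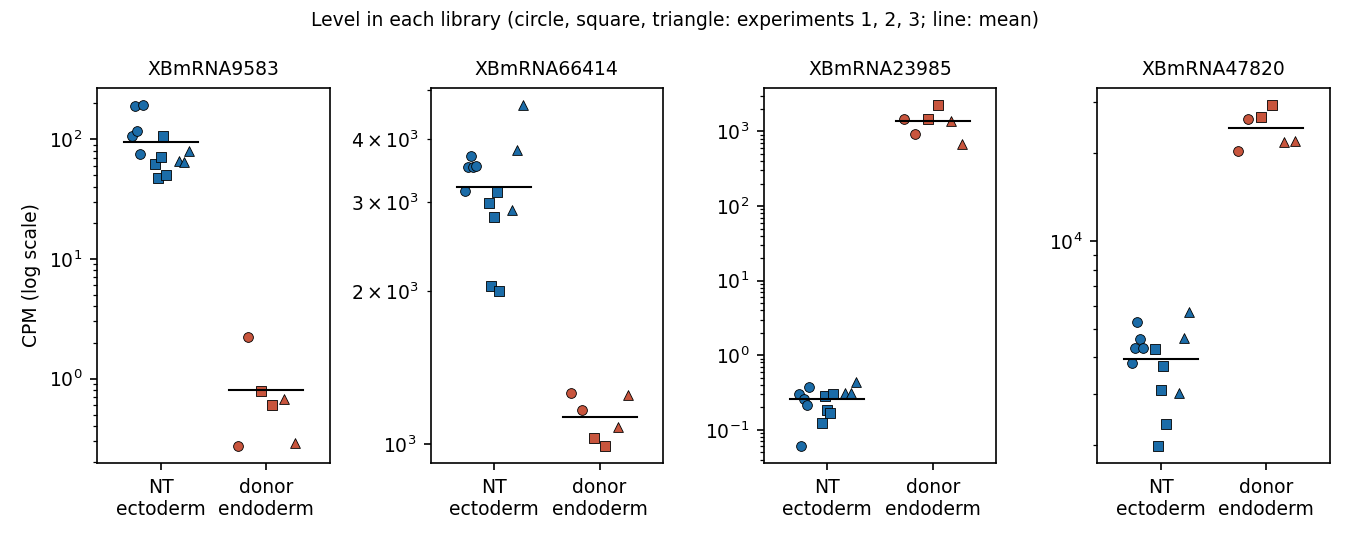
CPM on a log axis of the 4 named transcripts in each NT and donor library, with 1 panel per transcript, NT left of donor, points marked by experiment and group means as horizontal lines. In every panel the NT libraries and the donor libraries occupy ranges that do not overlap, which the naming rule required.

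After TMM scaling, on which the even split depended, increases and decreases were alike in number and unlike in size. Among transcripts called higher in NT ectoderm the median log2 fold change was 1.32, the 90th percentile was 2.94 and the 99th was 4.85. Among those called lower, the corresponding values were -1.35, -4.74 and -9.93. At 2 log2 units or more there were 2093 higher and 2579 lower transcripts, and at 3 there were 743 and 1606. At 5 there were 69 higher and 728 lower, at 7 there were 3 and 340, and at 10 there were 0 and 79. More transcripts were lower than higher by at least 5 in all 34 alternative settings run. There were 149 higher and 566 lower with total-count scaling. Without the low-count filter there were 116 and 1138, and with a minimum of 10 counts in every library 8 and 106. Within experiments 1, 2 and 3 alone, 293, 362 and 308 were higher and 901, 1066 and 902 lower. The count of large increases was thus well above 69 in each experiment. The ratio of lower to higher was 3.08, 2.94 and 2.93 within the experiments, against 10.6 in all together. The count of large increases was 130 without donor library 1 of experiment 3, and 115, 109 and 146 without experiment 1, 2 or 3.

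**Figure D4:**
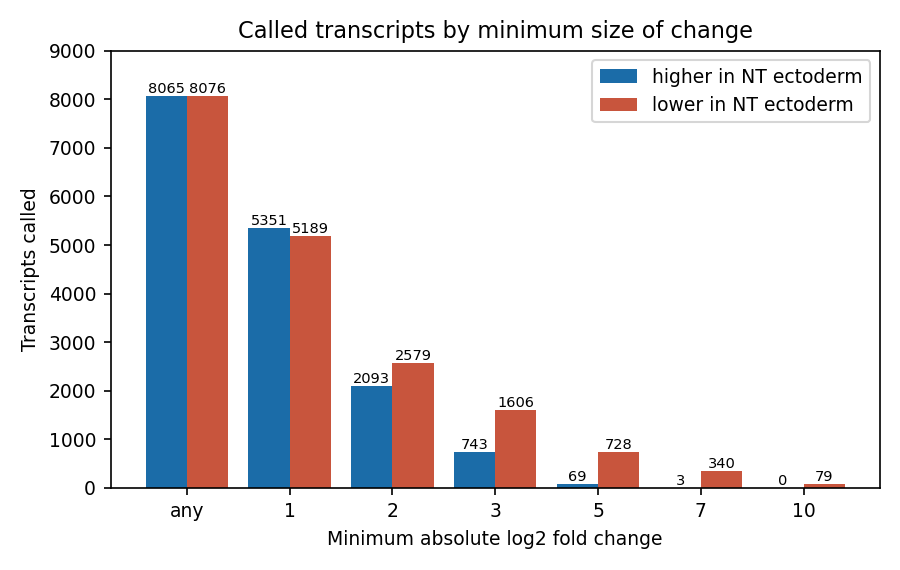
Bars give the number of transcripts called (y axis) whose absolute log2 fold change reaches the value on the x axis, higher in NT ectoderm in the left bar of each pair and lower in the right bar. After TMM scaling the paired bars are nearly equal without a minimum (8065 and 8076) and part as the minimum grows, to 69 higher and 728 lower at 5.

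The levels on which the changes stood also differed. Transcripts called higher had median levels of 12.9 CPM in NT ectoderm and 4.60 CPM in donor endoderm, and transcripts called lower had 8.21 CPM in NT ectoderm and 27.5 CPM in donor endoderm. Of the 5351 transcripts higher by at least 1 on the log2 scale, 1802 (33.7%) were under 1 CPM in donors, 2442 (45.6%) lay between 1 and 10 CPM there, and 1107 (20.7%) had at least 10 CPM. Of the 5189 lower by as much, 1603 (30.9%) were under 1 CPM in NT ectoderm, 1844 (35.5%) lay between 1 and 10 CPM, and 1742 (33.6%) kept at least 10 CPM.

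Most transcripts near absent in 1 tissue and at a clear level in the other were low in NT ectoderm. There were 47 transcripts with under 1 CPM in donors and at least 10 CPM in NT ectoderm, 0.433% of the 10858 with at least 10 CPM in NT ectoderm. In the other direction, 432 had under 1 CPM in NT ectoderm and at least 10 CPM in donors, 3.96% of the 10914 with at least 10 CPM in donors. The 47 are called gained and the 432 lost here. These are names for the levels only, since no transcript was followed from donor cells into NT embryos. A further 8951 had at least 10 CPM in both tissues, of which 2760 were called higher and 3763 lower. The 47 gained transcripts had median levels of 13.4 CPM in NT ectoderm and 0.679 CPM in donors, and the highest of their NT means was 94.2 CPM. The 432 lost transcripts had 0.298 CPM in NT ectoderm and 25.7 CPM in donors, with a highest donor mean of 2880 CPM. Both lists were chosen by these levels, so these values describe them and test nothing. Total-count scaling gave 112 gained and 312 lost. The experiments alone gave 82, 118 and 93 gained and 478, 518 and 403 lost, and leaving out experiment 1 gave 76 and 434. Requiring 10 counts in each library gave 0 and 0, since this drops transcripts of this kind. Complete absence was rare: 5 transcripts called lower with at least 10 CPM in donors had 0 counts in all 13 NT libraries, and 0 of those called higher with at least 10 CPM in NT ectoderm had 0 counts in all 6 donor libraries. Over all calls, whatever the level, these numbers were 9 and 13.

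The same lists were followed in libraries that had no part in choosing them. In the NT and donor libraries of A485, 34 of the 47 gained transcripts (72.3%) met the same levels, with medians of 14.8 CPM in NT ectoderm and 0.589 CPM in donors. Of 422 lost transcripts tested there, 339 (80.3%) met them, with medians of 0.332 and 31 CPM. In the 4 IVF ectoderm libraries, the gained transcripts had a median of 16.6 TPM, beside 15.8 TPM in NT ectoderm and 0.419 TPM in donors. The lost transcripts had a median of 0.153 TPM in IVF ectoderm, beside 0.217 TPM in NT ectoderm and 17 TPM in donors. Of the lost transcripts, 379 (87.7%) were under 1 TPM in IVF ectoderm, beside 403 (93.3%) in NT ectoderm. Of the gained transcripts, 1 (2.13%) was under 1 TPM in IVF ectoderm. The shares of all tested transcripts that met these levels in the A485 or IVF libraries were not counted. The percentages therefore describe the lists and are not set against a background. Summed, the gained transcripts held 0.112% ± 0.0125 of all TPM in NT ectoderm (n = 13), 0.00281% ± 0.00061 in donors (n = 6) and 0.114% ± 0.0133 in IVF ectoderm (n = 4). The lost transcripts held 0.0163% ± 0.0041 in NT ectoderm, with a range from 0.0119% to 0.0258%, and 3% ± 0.568 in donors, with a range from 2.15% to 3.82%. IVF ectoderm ran from 0.0298% to 0.0549%, above every NT library; the list had been chosen as low in NT ectoderm, and the 4 IVF libraries all came from experiment 1. The number of lost transcripts still at 1 TPM or more was 21 to 65 in NT libraries (median 30), 399 to 422 in donor libraries and 46 to 54 in IVF libraries. The highest 2 NT counts, 59 and 65, belonged to experiment 3.

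**Figure D5:**
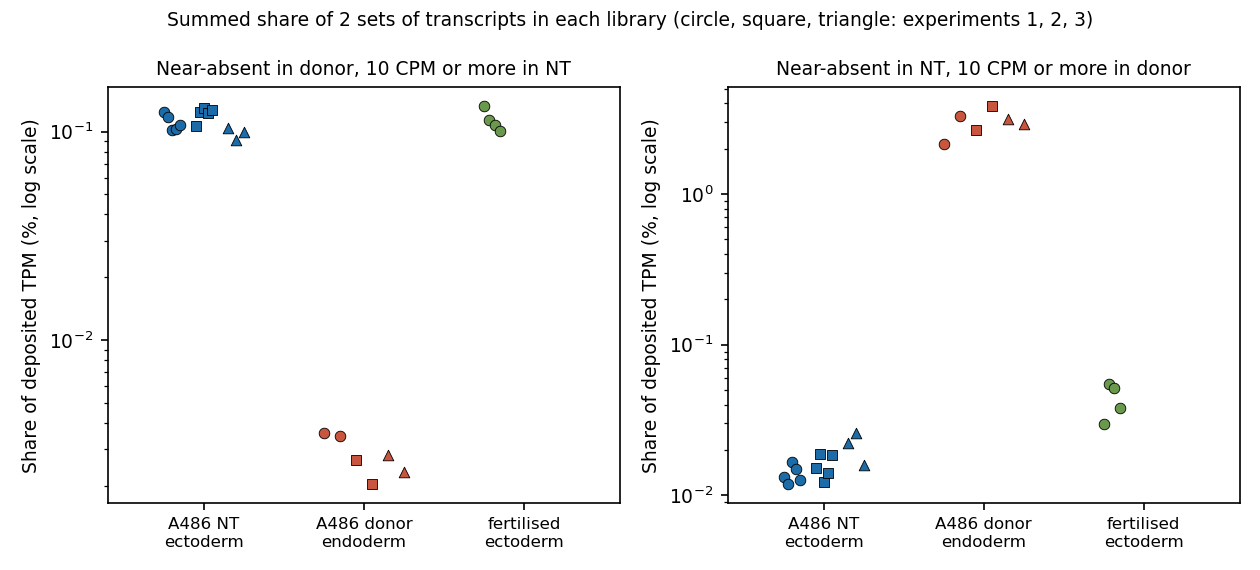
Percent of all TPM (y axis, log scale) held by the 47 gained and the 432 lost transcripts in each NT, donor and IVF library, with the gained transcripts in the left panel, the lost in the right and points marked by experiment. The gained transcripts hold about 0.11% in NT and IVF ectoderm, and the lost transcripts hold 2.15% to 3.82% in donors and at most 0.0258% in NT ectoderm.

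The changes reached the abundant part of the RNA. Transcripts called higher made up 36.1% ± 1.58 of all TPM in NT libraries and 10.5% ± 2.21 in donor libraries, and transcripts called lower made up 38.3% ± 1.32 in NT libraries and 73.3% ± 4 in donor libraries (SD, n = 13 and 6). These lists come from the same libraries, so the shares are a description. Of the 100 most abundant donor transcripts, which held 30.3% of donor TPM, 76 were called lower, 7 higher and 17 in neither direction, and 25 were lower by 5 log2 units or more. They still held 20.6% of TPM in NT ectoderm. Of the 100 most abundant NT transcripts, which held 26.9% of NT TPM, 33 were called higher, 42 lower and 25 in neither direction, and 1 was higher by at least 5. These transcripts held 20% of TPM in donors, and 60 transcripts were in both lists. Over all transcripts tested, 35.5% were called in each direction. Each list of 100 was ranked in libraries of the test itself. That favours lower calls among abundant donor transcripts and higher calls among abundant NT transcripts, so these counts are a description.

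The number of transcripts detected per library differed between the tissues in a direction that depended on the scale. At least 1 TPM was reached by 19087, 19437 and 20114 transcripts in the lowest, median and highest NT library, against 17599, 17964.5 and 18338 in donor libraries. At least 1 CPM after TMM was reached by 18434, 18837 and 19226 transcripts in NT libraries, against 19063, 19317.5 and 19682 in donor libraries. All NT libraries lay above all donors on the first scale, and on the second their mean lay below that of the donors, with overlap. The difference in means was 1556 transcripts for TPM, and 1305, 1847 and 1586 within experiments 1, 2 and 3. For CPM it was -532.5, and -548.9, -630.1 and -318.8 within the experiments. At least 100 TPM was reached by 1684, 1829 and 1978 transcripts in NT libraries and 1567, 1603 and 1686 in donor libraries, and at least 100 CPM by 1460, 1649 and 1742 in NT libraries and 2271, 2405.5 and 2565 in donor libraries. Since libraries of 1 experiment resemble each other, group labels were permuted within experiments (4410 arrangements, two-sided exact permutation test, smallest possible p = 0.000227, adjusted over 7 measures; added after the data were seen). The p was 0.000227 for 1 TPM, 100 TPM and 100 CPM (adjusted 0.00053) and 0.000454 for 1 CPM (adjusted 0.000794). The share of TPM held by the 100 most abundant transcripts of each library was 27.05% ± 3.22 in NT libraries and 31.09% ± 0.92 in donor libraries (exact permutation within experiments, p = 0.00227, adjusted 0.00318). That difference was -3.57 and -7.32 percentage points in experiments 1 and 2 and 0.258 in experiment 3, so it did not hold within every experiment. The share of the 10 most abundant was 8.82% ± 2.51 in NT libraries and 10.06% ± 0.567 in donor libraries, which the test did not separate (exact permutation within experiments, p = 0.144, adjusted 0.168).

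Within single experiments the same comparison gave 13278 calls of 22304 transcripts in experiment 1 (59.5%), 15563 of 22743 in experiment 2 (68.4%) and 14076 of 23785 in experiment 3 (59.2%). Among 21003 transcripts tested in all 3, 3365 were called higher in every experiment (16%) and 4049 lower in every experiment (19.3%), and 1043 (4.97%) were called in opposite directions in 2 experiments. Lists were made from a joint fit of 2 experiments, of transcripts called with a change of 1 log2 unit or more. Each list was followed in the third experiment, which shared no library with that fit. With experiment 1, 2 or 3 held out, the higher list had the same sign in 90.9%, 95.4% and 92.7% of its transcripts, against 51.6%, 51.9% and 50.8% of all transcripts. For the lower list these were 93.4%, 94.2% and 94.7%, against 48.4%, 48.1% and 49.2%. Of the higher list, 67%, 81.5% and 71.6% were also called in the third experiment, against 29.3%, 35% and 29.2% of all transcripts. Of the lower list, 78.7%, 85.3% and 82.7% were called, against 30.3%, 33.5% and 30%.

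The change varied between the experiments in size, and for part of the transcripts in sign. The interaction test used here takes the spread between libraries as its measure. It cannot tell variation of NT libraries between experiments from variation of donor libraries. The interaction of group and experiment was called for 9529 of 22718 transcripts (41.9%; edgeR, adjusted p under 0.05). Of the 8932 that were tested in each experiment, 4871 (54.5%) had the same sign in all 3 and 4061 (45.5%) did not, with a median span of 1.54 on the log2 scale between the lowest and highest experiment. The experiment farthest from the others was experiment 1 for 39.7% of them, experiment 2 for 34.1% and experiment 3 for 26.2%. Since libraries of 1 experiment lay closer together than those of different experiments, counts were also summed per group and experiment, an alternative added after the data were seen. The 9001 calls this gave were 4234 higher and 4767 lower. Of the 16088 calls of the library-level test that were also tested in it, 8290 were called and 0 were called in the opposite direction.

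The 2 donor libraries of experiment 1 differed from each other on lists made without experiment 1, and neither had a part in choosing them. Over the 5718 transcripts called higher by 1 log2 unit or more from experiments 2 and 3, the mean log2 CPM ran from 2.99 to 3.40 in NT libraries. It was 1.89 in donor library 1 and 1.56 in donor library 2 of experiment 1. Over the 5277 transcripts called lower by as much, it ran from 1.80 to 2.18 in NT libraries. It was 4.10 in donor library 1 and 4.44 in donor library 2. Donor library 1 was thus the nearer of the pair to the NT libraries on both lists. The donors of experiments 2 and 3 helped to choose these lists and are not set beside them. The NT libraries of those experiments helped to choose the lists as well, so the NT ranges are a description only. Without donor library 1 of experiment 1, 16537 of 23155 transcripts were called, and 8519 were called to differ between experiments. What lies behind its position was not tested.

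The change made with A486 nuclei was set against that made with A485 nuclei, in 11 NT and 6 donor libraries of the same 3 experiments that share no library with the A486 groups. A485 gave 16370 calls of 21861 transcripts (74.9%). At 1 log2 unit or more, and among transcripts tested in both, 5127 were higher with A486 and 6035 with A485. They shared 4711, which is 91.9% of the A486 list and 78.1% of the A485 list, where the A486 list holds 23.7% and the A485 list 27.9% of all 21667 transcripts tested in both. Lower transcripts numbered 4920 with A486 and 5255 with A485 and shared 4418, 89.8% and 84.1% of the lists, where the A486 list holds 22.7% and the A485 list 24.3% of all. A direct test of the difference between the changes called 8 of 23953 transcripts (0.0334%), 4 with a higher change under A486 and 4 with a lower one. Of these, 7 differed by at least 1 log2 unit (0.0292%), and 3403 of all tested (14.2%) had an unadjusted p under 0.05. The 90th percentile of the absolute difference was 0.998 on the log2 scale. The difference of the log2 fold changes, A486 minus A485, was 0.33 for XBmRNA9583 with a 95% interval from -0.83 to 1.49, and 0.04 for XBmRNA66414 with an interval from -0.37 to 0.46. It was 0.13 for XBmRNA23985, between -0.69 and 0.95, and 0.39 for XBmRNA47820, between -0.14 and 0.92. None of the 4 was called (edgeR, adjusted p = 0.836, 0.956, 0.918 and 0.506). The count of 8 was fragile: it was 295 without experiment 2, 0 without experiment 1, and 1580 in a model with a separate mean for each group in each experiment, which was added after the data were seen. A p that misses the threshold does not show that the changes were alike. In simulated counts, the direct test recovered 31% of 100 differences of 1 log2 unit and 71% of 100 differences of 2 units. Those counts held no difference between experiments, and none between donor endoderm and NT ectoderm beyond the differences put in. The recovered shares need not hold for transcripts whose level differs between the tissues.

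The DMSO experiments, made with the solvent alone, were the other control series. They were counted against 72076 targets, so that only 13555 of 41837 shared identifiers have equal length and were used. The change between donor endoderm and NT ectoderm in 12 NT and 6 donor DMSO libraries was called for 1604 of 2520 such transcripts (63.7%). At 1 log2 unit or more, the lists of 643 higher transcripts with A486 and 630 with DMSO shared 473 (73.6% and 75.1%), where they hold 29% and 28.5% of all 2214 transcripts tested in both. The lists of 520 and 555 lower transcripts shared 419 (80.6% and 75.5%), where they hold 23.5% and 25.1% of all. The difference between the changes was called for 404 of 3040 transcripts (13.3%), 111 with a higher change under A486 and 293 with a lower one, of which 364 (12%) differed by at least 1 log2 unit, around a median difference of -0.205. The split moved with the scaling: DESeq2's size factors (RLE) gave 122 and 228 around a median of -0.101. Compound, series and target set differ together between these experiments and cannot be told apart.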

How the data were processed

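Abundance tables were at hand for 85 samples, and 19 entered the comparison. They were made with kallisto 0.48, and R 4.3.1 and DESeq2 1.40.2 are also named, per the submitters' processing notes; the build is not given in the sources used here. The authors' deposited values are expected counts per target, TPM (scaled by the authors for length and depth) and target lengths in bases, an other kind of value used to match target sets. Expected counts were rounded and tested in R 4.3.3 with edgeR 4.0.16 (filterByExpr, minimum count 10, TMM, glmQLFit and glmQLFTest, two-sided, experiment as block, Benjamini-Hochberg adjustment); limma 3.58.1 was loaded and DESeq2 1.42.0 was an alternative. Levels are CPM after TMM; principal components and correlations used log2 CPM with prior count 2. Differences of changes were interaction terms. Scripts were tested on simulated data.

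Named transcripts were called, had at least 10 CPM in the higher group, no overlap between groups and 1 sign in all 3 experiments; in each direction the largest change and the most abundant with an absolute log2 fold change of at least 1 were taken. Libraries, lists and this rule were chosen with earlier results of these data known. Alternatives were total-count, upper-quartile and RLE scaling, no filter, 10 counts in every library, DESeq2, no block, and leaving out libraries or experiments. Groups follow the titles, also for 2 A485 libraries whose tissue fields contradict them. A further 4 files tied to no sample were not used here.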

Additional observations from a re-analysis of the deposited data

Results flagged for a closer look

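Donor library 1 of experiment 1 held 14.85% of its TPM in transcripts called higher in NT ectoderm, where the other donors held 8.84% to 10.8%, a gap that set it apart from its group by Dixon's criterion. Donor library 2 of experiment 1 had 2.22 CPM of XBmRNA9583, where the other donors had 0.273 to 0.793 CPM, and met the same criterion. The criterion was applied to 17 measures of donor or IVF ectoderm libraries, and 2 met it. NT libraries were not examined in this way. Chance sets apart about 1 in 20 for a single measure, but these measures share libraries and are not independent. The list behind the 14.85% was called from these same libraries. Both flagged libraries are the donors whose cell type field reads ectoderm. The change differed between the experiments, by an interaction test, for 9529 transcripts. It differed between A486 and A485 for 8 transcripts and between A486 and DMSO for 404, by tests of the difference itself.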

How the results depend on the processing

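The total number of calls stayed within 1.5 times 16141 under every alternative except counts summed per group and experiment with a replicate block (9001). Leaving out 1 library gave 15469 to 16537 calls, and leaving out experiment 1, 2 or 3 gave 15691, 14519 and 15098. Without the replicate block there were 15649 calls, which included 95.3% of the calls made with it. Libraries of the same number did not deviate together (r = -0.00439, -0.0585 and -0.0483 for experiments 1 to 3), so the numbers are not shown to pair the groups, and the block was kept as a term of the comparison. DESeq2 called 16576 of 22659 transcripts, no filter 19546 of 37924, and a minimum of 10 counts in every library 11342 of 15343, with 6012 of an absolute log2 fold change of at least 1. RLE gave 16150 calls (7838 higher, 8312 lower) and upper-quartile scaling 16193 (9101 higher, 7092 lower, around a median of 0.184). The 4 named transcripts kept their direction and call in every alternative that tested them; the minimum of 10 counts left XBmRNA9583 and XBmRNA23985 untested. The highest adjusted p among alternatives was 0.0001304 for XBmRNA9583, 0.002106 for XBmRNA66414, 6.808e-05 for XBmRNA23985 and 0.000981 for XBmRNA47820. The A486 and A485 difference gave 1 call with a minimum of 10 counts, 1 with no replicate block, 0 without experiment 1 (2229 at an unadjusted p under 0.05; DESeq2 was not run on it), 295 without experiment 2 and 1580 with a mean for each group and experiment. The A486 and DMSO difference gave 145 calls with a minimum of 10 counts and 615 with a mean for each group and experiment. The difference between experiments was called for 7460 of 15343 transcripts with a minimum of 10 counts and 8884 of 37924 with no filter. It was called for 9525 of 22718 with RLE and 8519 of 23155 without donor library 1 of experiment 1. The cause of these shifts was not tested. A minimum of 10 counts tested fewer transcripts, and summing left fewer samples and tested 25492 transcripts, against 22718 in the main comparison. The difference in detected transcripts, NT minus donor, was 1556 at 1 TPM and 217.9 at 100 TPM, and on the TMM scale -532.5 at 1 CPM and -781.4 at 100 CPM. Large increases (69 at a log2 fold change of at least 5) were 105 with a mean for each group and experiment, and the gained list (47) was 53 without a filter. Depth limits what can be said of transcripts below the level of 3 counts, at most 0.372 CPM in NT libraries and 0.273 CPM in donor libraries.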

Other observations

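By level, transcripts were split into 4 equal classes of mean CPM over the 19 libraries. In the class of highest level, from 34.9 to 15700 CPM, 31.3% were called higher in NT ectoderm and 48.3% lower, with a median log2 fold change of -0.24. In the next class, from 10.2 to 34.9 CPM, 40.4% were higher and 35.2% lower. In the class from 2.5 to 10.2 CPM 39% were higher and 32.4% lower, and in the lowest class 31.2% and 26.4%, with medians of 0.16 and 0.14. By length, the longest class of transcripts (3789 to 105908 bases) had 33.8% higher and 38.2% lower, and the other 3 classes had 34.2% to 37.1% higher and 34.5% to 34.9% lower. The 260 tested transcripts without an mRNA model identifier had 31.2% higher and 29.6% lower, with a median of 0.14, beside 35.6% and 35.6% of the 22458 mRNA models, with a median of 0.02. These are descriptions of classes, with no test.

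Of the tested transcripts, 67 had the same expected count, rounded to a whole number, as another in each of the 19 libraries. Of these 67, 54 were called, where 71% of all 22718 transcripts tested were called. The sequences of the 67 were not at hand, and the reason for the equal counts was not tested. None of the named transcripts was among them.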
